A study of Mus musculus with 4 samples.

Results

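Diphtheria toxin (DT) given to OHC-TRECK mice was compared with the same toxin given to wild-type (WT) mice by asking, gene by gene, whether the toxin difference depended on the genotype. For each probe the difference between DT(+) and DT(-) in WT was subtracted from that in OHC-TRECK, on a log2 scale, and this double difference is called the interaction. Of 39429 probes on the array, 23688 (60.1%), representing 18233 genes, were well above background on all 4 arrays. Among these, 558 probes of 538 genes had an interaction of 2-fold or more and are the members described here. They comprised 283 probes with a higher interaction (1.19% of those tested) and 275 with a lower interaction (1.16%).

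The 4 groups were WT DT(-), WT DT(+), OHC-TRECK DT(-) and OHC-TRECK DT(+), all on the background labelled B6J, 5 weeks of age and represented by cochlear RNA of both sexes (4 females and 4 males by the series' design) pooled into 1 array each. The DT(+) mice had received 50 μg/kg of DT 7 days before dissection, and the DT(-) mice no toxin. OHC-TRECK mice are the *Prestin*-*hDTR* mice of 1 selected transgenic line (#38), in which the promoter of *Slc26a5*, the gene for prestin, drives human HB-EGF, which serves as the DT receptor. The WT mice carry no transgene, so both OHC-TRECK groups share the transgene and its place of integration, and both DT(+) groups share the toxin. With 1 array a group no difference has a replicate check, and no p-value is given.

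Diphtheria toxin stops protein synthesis by inactivating elongation factor 2, and mouse cells largely resist it because mouse HB-EGF binds the toxin poorly. A human receptor placed on 1 cell type therefore makes that type sensitive. Outer hair cells (OHCs) are the electromotile sensory cells that amplify sound in the cochlea. They carry a stereocilia bundle with mechanotransduction channels and receive efferent synapses through an acetylcholine receptor. In cochlear RNA alone, loss of a cell type and a lower RNA level per cell cannot be told apart. By cell counts in this line, at the same dose and day, the paper reported that DT removed almost all OHCs. It reported no change in the numbers of inner hair cells and Deiters' cells.

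All values below are log2 signals relative to the 75th percentile of the array, so that 0 is that percentile and a difference of 1 is 2-fold. Over all probes tested the median interaction was 0.02, with a standard deviation (SD) of 0.37. The toxin difference itself had an SD of 0.33 in OHC-TRECK and 0.24 in WT. The error that the scanner software assigns to each signal, propagated through the 4 arrays, had a median of 0.29 for an interaction and ranged from 0.29 to 0.59. By that error 457 of the 558 members exceeded 3 errors, and 2 stayed under 2 errors. Members were chosen by an interaction of 2-fold or more and had a median error of 0.35, so these counts follow largely from that choice. Probes with at least 5 usable spots on every array, 297 in number, had a median spot SD of 0.13 for the interaction. Both errors describe spots on an array and not the spread between mice. Members were dim, with a median level of -3.71 against -0.70 over all probes tested, and the dimmest of 3 equal groups of probes by level (7896 each) held 216 of the 283 higher and 203 of the 275 lower ones.

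An interaction can be set by any of the 4 arrays. The share of each array was taken as its signed distance from the median of the 4 arrays divided by the interaction, and a member was assigned to the array that held 0.5 or more of the interaction. Of the 558 members, 265 (47.5%) were set by OHC-TRECK DT(+), here called toxin in OHC-TRECK, of which 178 were higher and 87 lower. Another 66 were set by WT DT(+), 45 by untreated OHC-TRECK and 47 by untreated WT. The remaining 135 had no single array with that share. Toxin in OHC-TRECK set 62.9% of the higher interactions but 31.6% of the lower ones, and toxin in WT set 64 lower and 2 higher interactions. These counts depend on the filter, since a probe too dim on the deciding array is not among the members. There were 362 probes well above background on every array except WT DT(+), of which 100 had an interaction at least 2-fold higher when WT DT(+) was set to no more than the lowest signal detected there, and 553 such probes for OHC-TRECK DT(+), of which 93 were at least 2-fold lower. Toxin in OHC-TRECK set 27 members (77.1%) in the brightest of the 3 groups by level and 165 (39.4%) in the dimmest.

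**Figure D1:**
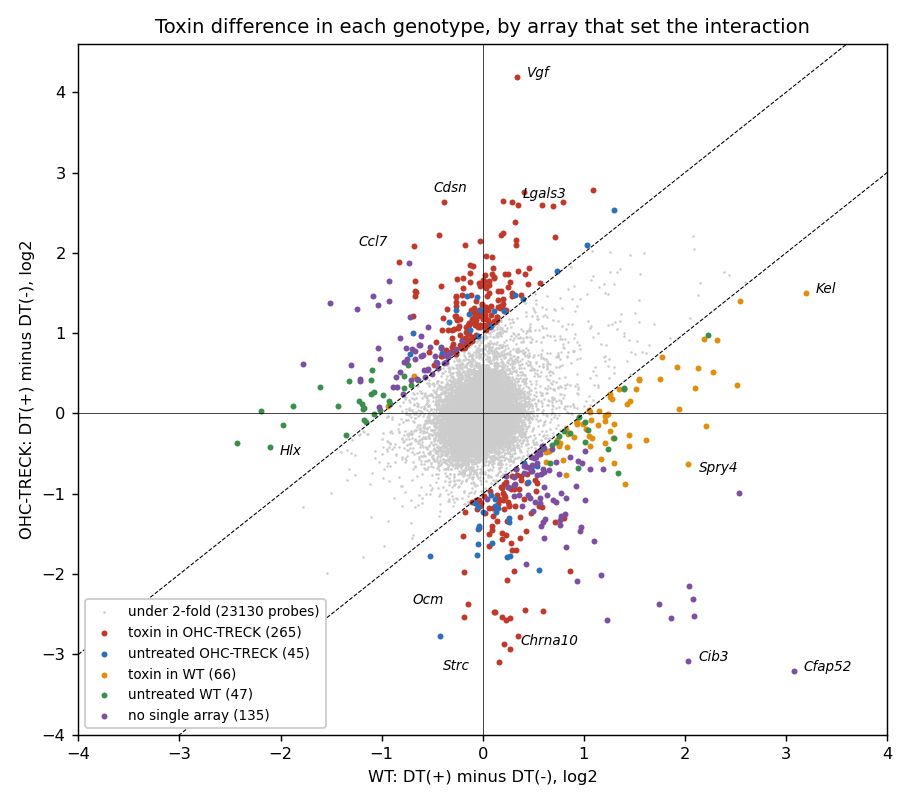
Toxin difference in WT (horizontal axis) and in OHC-TRECK (vertical axis) on the log2 scale, with 1 point for each of 23688 probes. Dashed lines mark an interaction of 2-fold, and colours give the array that set it. Members set by toxin in OHC-TRECK (265) lie along the vertical axis, those set by toxin in WT (66) lie toward the right, and a group led by *Cfap52* and *Cib3* lies at the lower right, where the toxin differences have opposite signs.

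The genes with a higher interaction set by toxin in OHC-TRECK were led by *Vgf*, a secreted neuronal peptide precursor. Its signal was -1.96 in WT DT(-), -1.63 in WT DT(+), -2.69 in OHC-TRECK DT(-) and 1.5 in OHC-TRECK DT(+), which gives an interaction of 3.86 (14.5-fold; software error 0.29). The level in OHC-TRECK DT(+) stood above the other 3 arrays, among which untreated OHC-TRECK was lowest. *Cdsn* (corneodesmosin, an adhesion protein of the cornified epidermis) read -3.91, -4.30, -4.18 and -1.55 in the same order, for an interaction of 3.03. It was the 1 gene past 2-fold of 6 measured in the list of keratin and cornified envelope genes, whose median was 0.32.

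Chemokine ligands were also among the highest. *Ccl7*, a monocyte attractant, read -3.77 in WT DT(-), -4.45 in WT DT(+), -4.24 in OHC-TRECK DT(-) and -2.16 in OHC-TRECK DT(+), an interaction of 2.76. *Ccl2*, a ligand for CCR2 on monocytes, read -3.37, -3.79, -3.86 and -1.64, an interaction of 2.65. In both genes WT DT(+) was below WT DT(-), which adds to the interaction. *Ccr2*, the receptor, had an interaction of 2.01, but its 3 other arrays ranged from -5.89 to -4.49, and untreated OHC-TRECK was again lowest. By qRT-PCR the paper found *Ccl2* and *Ccl7* significantly higher in DT-treated *Prestin*-*hDTR* mice, but not *Ccr2*. Of the 12 chemokine ligands measured, 6 had a higher and 1 a lower interaction of 2-fold or more, all 7 set by toxin in OHC-TRECK. The lower one was *Cxcl14* (-1.24), which read 0.23, 0.29, 0.55 and -0.63.

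Monocyte and macrophage genes were higher as a group. All 18 measured had an interaction above 0, 13 were past 2-fold, and the median was 1.21, beside a median of 0.02 over all genes. All 13 were set by toxin in OHC-TRECK. *Lyz2* (lysozyme) read -0.93, -0.60, -1.40 and 0.70, *Mpeg1* (perforin-2) 0.28, 0.39, 0.10 and 1.78, and *Cd68*, a lysosomal protein of macrophages, -0.26, -0.21, -0.46 and 1.0. OHC-TRECK DT(+) lay above the other 3 arrays in each of these genes, and untreated OHC-TRECK was the lowest. The median toxin difference of the list was 1.14 in OHC-TRECK and -0.05 in WT. *Itgam*, which neutrophils also express, was the member with the smallest interaction (0.16), and it read 3.18, 2.78, 2.67 and 2.43. Such values cannot tell more macrophages from more RNA per macrophage.

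Genes of phagocytes that handle lipid and of complement showed a narrower pattern. *Lgals3* (galectin-3) read 0.38, 0.67, 0.14 and 2.77, an interaction of 2.34, and *Apoc2*, an activator of lipoprotein lipase, read -3.67, -3.47, -3.88 and -1.23, an interaction of 2.45. Of 21 measured genes of the list, 20 had an interaction above 0 and 4 were past 2-fold (*Lgals3*, *Apoc2*, *Trem2* and *Itgax*), with a median of 0.50. The abundant *Apoe* had 0.30 and *Spp1* 0.31. Of 11 complement genes measured, 5 were past 2-fold, all higher. These were the C1q chains *C1qa* (1.14), *C1qb* (1.20) and *C1qc* (1.12), *C4b* (1.14) and *Cfb* (1.07).

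Some genes known from injured neurons were also among the higher members. The nerve injury list had a median of 0.32 over 12 measured genes, but 5 were past 2-fold and all 5 were set by toxin in OHC-TRECK. Beside *Vgf* these were *Gap43*, a growth cone protein (2.0), *Cckbr*, a gastrin and cholecystokinin receptor (1.83), *Atf3*, a stress transcription factor (1.35), and *Gadd45a* (1.04). *Gap43* read -2.64, -3.05, -3.01 and -1.42. *Gal*, *Sox11*, *Jun* and *Bdnf*, further genes of that list, had interactions of 0.37, 0.01, 0.13 and -0.15. *Fos* read -2.88, -2.86, -2.88 and -1.16, so its other 3 arrays were level and the interaction was 1.71. The immediate early list had a median of 0.15 over 11 genes, and 2 were past 2-fold (*Fos* and *Atf3*).

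Among the further leading genes, *Timp1*, an inhibitor of matrix metalloproteinases, read -0.65, -0.82, -0.89 and 1.21 (interaction 2.27), and *Lgr6*, a receptor for R-spondins, read -4.76, -4.79, -4.90 and -2.76 (2.17). *Olig2*, an oligodendrocyte lineage factor, read -4.39, -5.22, -4.67 and -2.79 (2.72). *Olig2* was the 1 gene past 2-fold of 13 measured in the Schwann cell and myelin list, whose median was 0.38. *Clec1a*, a C-type lectin receptor, had 2.32. *Ddx43* read -5.76, -5.35, -5.99 and -3.23 (2.35, and 1.70 with normexp). *Gm10433* read -5.07, -4.72, -5.79 and -3.19 (2.25, and 1.57 with normexp). In the paper's qRT-PCR neither *Ddx43* nor *Gm10433* was detectable. It reported significant rises for most of its leading higher genes, and *Vgf*, *Cdsn*, *Apoc2* and *Lgals3* were not among the exceptions. Of the 178 higher members of this class, 100 stood 2-fold or more above each of the other 3 arrays, and in 161 both the toxin difference in WT and the gap between the untreated genotypes were under 1.5-fold.

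**Figure D2:**
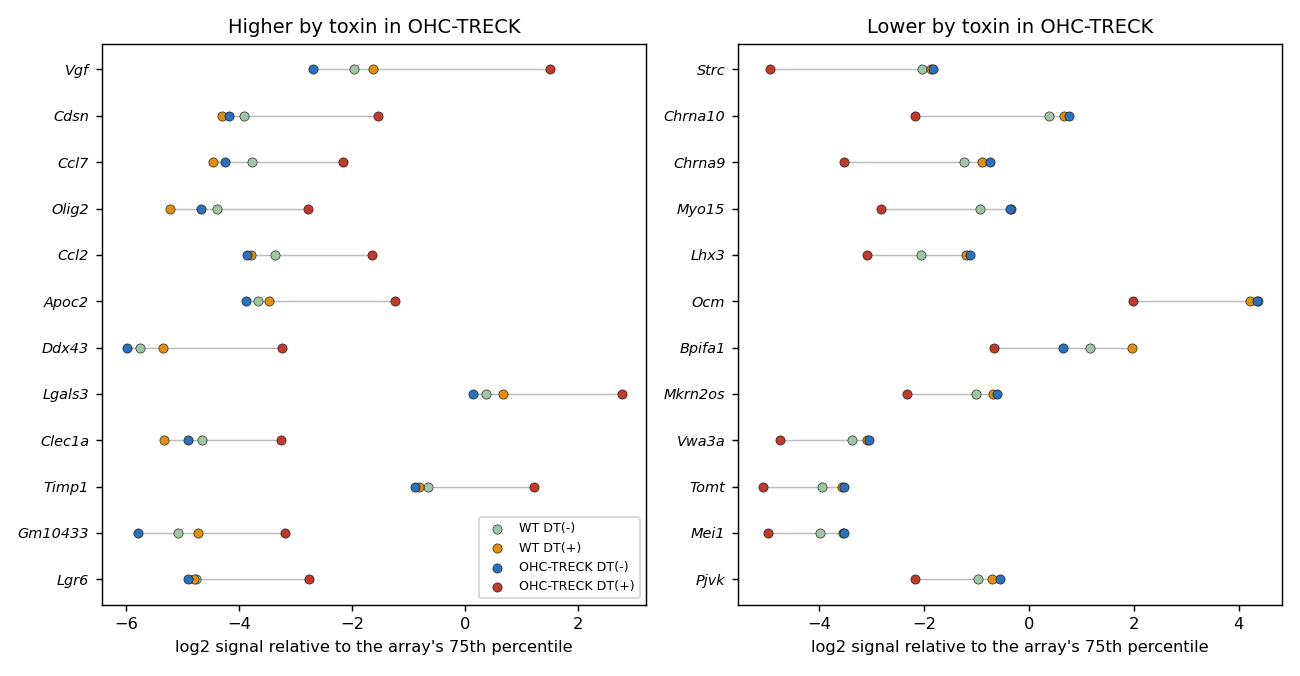
Signal of the 12 genes with the highest (left) and the 12 with the lowest (right) interaction among those set by toxin in OHC-TRECK that have a RefSeq name, by the brightest probe of each gene, as log2 relative to the 75th percentile of the array. Each gene has 1 point per array, joined by a grey line. The red point of OHC-TRECK DT(+) lies outside the range of the other 3 in each row, as for *Vgf* (1.5 against -2.69 to -1.63) and *Strc* (-4.93 against -2.03 to -1.83). In *Bpifa1* (-0.66 against 0.65 to 1.96) and *Lhx3* (-3.08 against -2.06 to -1.12) the other 3 also lie apart from each other.

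RefSeq promoter windows (GRCm38.p6, 250 bases before the start) were matched by symbol to 113 of the 170 genes with a higher interaction set by toxin in OHC-TRECK, giving 121 windows. The motif GAGGAAGT, an ETS-type sequence of the kind bound by the myeloid factor PU.1, was held on either strand by 9 of these windows (7.44%), 1 of 67 windows of the lower genes of the same class (1.49%) and 2.44% of all 32851 windows. It is shown for the 5 genes in which it lay within 60 bases of the start, with the motif or its reverse complement in capitals, each sequence being the 60 bases before the start, 5′ to 3′ on the strand of the gene.
*Slamf9* (chr1:172475300-172475359, + strand): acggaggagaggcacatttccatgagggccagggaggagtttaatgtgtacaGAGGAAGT
*Havcr2* (chr11:46454871-46454930, + strand): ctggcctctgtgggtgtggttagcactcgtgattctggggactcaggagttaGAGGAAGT
*Vav1* (chr17:57279040-57279099, + strand): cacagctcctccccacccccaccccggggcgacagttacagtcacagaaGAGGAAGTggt
*Cd72* (chr4:43454627-43454686, - strand): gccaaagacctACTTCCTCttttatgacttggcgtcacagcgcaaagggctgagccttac
*Hsd17b6* (chr10:128007612-128007671, - strand): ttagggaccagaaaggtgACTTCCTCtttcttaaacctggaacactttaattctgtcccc
*Slamf9*, *Havcr2*, *Vav1* and *Cd72* encode proteins of immune cells, whereas *Hsd17b6* encodes a steroid dehydrogenase. Their interactions were 1.58 for *Slamf9*, 1.02 for *Havcr2*, 1.25 for *Vav1* and 1.68 for *Hsd17b6*, and 1.37 and 1.52 for 2 probes of *Cd72*. *Hsd17b6* matched at 42 and at 145 bases before the start, so the 9 windows need not stand for 9 genes. A match of letters is a description and shows no binding.

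The motif was 1 of 10 searched on both strands after the values had been seen. An interferon response motif stood in 8.26% of the windows of the higher genes, 1.49% of those of the lower genes and 2.98% of all windows. The others were a long and a short X-box, the CRE TGACGTCA, the short ETS form GGAAGTG (which can overlap the longer one), TGANTCA for AP-1, GGGANTTCC for NF-kB, TTCNNNGAA for STAT and the E-box CAGCTG. The NF-kB motif stood in 4.96% of windows of the higher genes, 1.49% of those of the lower genes and 1.43% of all. The E-box was the most frequent, in 21.5% of windows of the higher genes, 16.4% of those of the lower genes and 13% of all. In windows of the higher genes and in all windows, the CRE stood in 0.826% and 1.55%. The long X-box stood in 0% and 0.469%, and the short X-box in 0.826% and 1.83%. In the same order STAT stood in 7.44% and 7.02%, AP-1 in 10.7% and 6.75%, and the short ETS form in 15.7% and 8.55%.

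The genes with a lower interaction set by toxin in OHC-TRECK were led by hair cell genes. *Strc*, for stereocilin, which links the tips of OHC stereocilia, read -2.03 in WT DT(-), -1.87 in WT DT(+), -1.83 in OHC-TRECK DT(-) and -4.93 in OHC-TRECK DT(+), an interaction of -3.26. *Chrna10* and *Chrna9*, the subunits of the efferent acetylcholine receptor, read 0.39, 0.66, 0.77 and -2.16, and -1.24, -0.89, -0.74 and -3.52, for interactions of -3.21 and -3.12. A second and dimmer *Chrna9* probe had 0.07. *Ocm* (oncomodulin), the OHC calcium buffer and the brightest of these genes, read 4.36, 4.21, 4.35 and 1.97, an interaction of -2.22, and its second probe had -2.35. In these genes OHC-TRECK DT(+) was the lowest array and the other 3 lay together.

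OHC genes differed among themselves. All 10 measured genes of the OHC list had an interaction below 0, with a median of -0.74, and 5 were past 2-fold, the 4 above and *Lmod3* (-1.12). Among those under 2-fold, *Ikzf2*, a transcription factor of OHC maturation, had -0.05, *Sri* -0.07, *Lbh* -0.13 and *Kcnma1* -0.25. *Slc26a5* was outside the members because it was not well above background in OHC-TRECK DT(+). It read -4.89, -4.47 and -5.06 on the other 3 arrays, and with OHC-TRECK DT(+) at no more than the lowest signal detected there (-5.44) its interaction was at least 1.75-fold lower. By qRT-PCR the paper found *Slc26a5*, *Ocm* and *Strc* close to undetectable in DT-treated *Prestin*-*hDTR* mice, and prestin staining of OHCs was nearly gone.

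Of 28 measured genes for the hair bundle and hair cell identity, 22 had an interaction below 0 and 11 were past 2-fold, 9 of them set by toxin in OHC-TRECK, with a median of -0.54. Among transcription factors, *Lhx3* read -2.06, -1.19, -1.12 and -3.08 (-2.83), *Pou4f3* -2.68, -2.49, -2.49 and -4.05 (-1.75), and *Gfi1* -0.34, 0.59, 0.71 and -1.37 (-3.01). In *Lhx3* and *Gfi1* the level in WT DT(-) was also lower than in WT DT(+) (by 0.86 and 0.93), so that the share of OHC-TRECK DT(+) was near 0.5 in both, just above it for *Lhx3* and just below it for *Gfi1*. The probes of *Barhl1*, another factor of hair cells, disagreed at -2.26 and 0.11. By qRT-PCR the paper found *Barhl1* and the other hearing loss genes it tested significantly lower. For mechanotransduction, *Tmc1*, a channel subunit, had -1.74, *Tomt* -1.92 and *Lhfpl5* -0.86, while *Tmie* had -0.45, *Cib2* -0.41 and *Pcdh15* -0.11. For the bundle, *Myo15*, a motor that delivers proteins to stereocilia tips, had -3.05, *Pjvk* -1.88, *Grxcr2* -1.55, *Grxcr1* -1.29, *Espn* -1.07 and *Clrn2* -1.04. *Myo7a* (-0.64) and *Myo6* (-0.22), which inner hair cells also express, stayed under 2-fold.

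Inner hair cell and supporting cell genes moved less. All 7 inner hair cell genes had an interaction below 0, with a median of -0.38, and 1 was past 2-fold, *Cabp2* (-1.12), a calcium-binding protein of the ribbon synapse. *Otof* (otoferlin) read 0.94, 1.09, 1.14 and 0.46 (-0.83), and *Slc17a8*, the vesicular glutamate transporter, had -0.23. Of 13 supporting cell genes, 0 were past 2-fold and the median was 0.17. The genes of toxin entry and its target had a median of 0.04 over 11, with *Eef2*, the toxin's target, at 0.02 and a mouse *Hbegf* probe at 0.82 (-1.5, -1.75, -1.46 and -0.89). Whether that probe also detects the human transgene was not tested.

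Genes other than those of hair cells shared this class. *Bpifa1*, a secreted airway protein, read 1.16, 1.96, 0.65 and -0.66 (-2.11), and *Cyp2f2*, of airway club cells, read 0.30, 0.73, -0.30 and -1.05 (-1.19). In both, the 3 control arrays also differed, with WT DT(+) highest and untreated OHC-TRECK lowest. *Lyz1* of the same list of 7 airway-type genes went the other way (1.31). *Ackr4*, a chemokine-scavenging receptor, had -1.71 and -2.06 with its 2 probes. *Tcap* was the 1 gene past 2-fold of 9 measured in skeletal muscle (-1.33), and *Il33*, an alarmin cytokine, had -1.39.

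On chromosome 14 (mm9), 12 probes had a lower interaction set by toxin in OHC-TRECK, from -3.08 to -1.04. They lay between positions 42615426 and 63082538, and 9 of them lay between 42 and 46 Mb, where 25 probes were tested. That window was chosen with the positions of these probes known. On all of chromosome 14, 863 probes were tested and 19 had a lower interaction of any class. Over all 23688 probes tested, 275 had a lower interaction, 87 of them set by toxin in OHC-TRECK. The RefSeq table named 3 of the 12, as *Gm9732* (2 probes, -2.31 and -1.04) and *Gm4131* (-1.68). The probe with the lowest interaction, listed in the array files as 1700016D02Rik (42615426 to 42615485), read -1.35, -1.14, -0.84 and -3.71. The gap between the untreated genotypes ranged from -0.01 to 0.53 over the 12 probes, and none was 2-fold lower in untreated OHC-TRECK. The paper maps the transgene of this line to the E3 region of the same chromosome. The distance of the transgene to these probes was not measured, and its part in these values was not tested. Whether these probes also detect copies of their targets was not tested, and the 12 probes may not stand for 12 genes.

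Toxin in WT set 66 interactions, of which 64 were lower, because the level in WT DT(+) was above the other arrays. Genes of red blood cells stood among them. *Hbq1b*, a theta globin, read -4.96 in WT DT(-), -2.45 in WT DT(+), -5.08 in OHC-TRECK DT(-) and -4.72 in OHC-TRECK DT(+), an interaction of -2.15. *Kel*, a red cell surface antigen, read -5.46, -2.27, -5.37 and -3.87 (-1.69). *Kel* was higher with toxin in both genotypes, by 3.19 in WT and by 1.5 in OHC-TRECK. All 18 erythroid genes measured had an interaction below 0, with a median of -0.70, and 5 were past 2-fold, all set by WT DT(+). The median toxin difference of the list was 0.93 in WT and 0.18 in OHC-TRECK. The most abundant of them, *Hba-a1*, read 5.92, 6.2, 6.18 and 6.28 (-0.17).

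Among the B cell genes, 2 of 16 measured were past 2-fold, *Vpreb3* and *Dntt* (both -1.01), and both were set by WT DT(+). Outside blood cells, *Spry4*, an inhibitor of receptor tyrosine kinase signalling, read -4.91, -2.88, -4.18 and -4.80 (-2.66), *Plag1* -5.04, -2.84, -5.02 and -5.17 (-2.36), *Ccny* -3.26, -1.85, -2.77 and -3.65 (-2.28), and *Trhde*, an ectoenzyme, -3.55, -2.10, -3.31 and -3.72 (-1.85). The noncoding *Prdm16os* read -4.56, -2.62, -4.81 and -4.75 (-1.88). In each of these, WT DT(+) was the highest array. The higher members of this class were *Gcg* (1.15, and 0.83 with normexp) and *Timeless* (1.03).

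Untreated OHC-TRECK set 20 higher and 25 lower interactions. In the higher ones this array was the lowest of the 4, so that the toxin difference in OHC-TRECK was large without OHC-TRECK DT(+) standing apart. *Foxp3*, the factor of regulatory T cells, read -5.10 in WT DT(-), -5.26 in WT DT(+), -6.2 in OHC-TRECK DT(-) and -4.74 in OHC-TRECK DT(+) (1.62), with a software error of 0.57. *Arhgap30* had 1.47 and *Ighv14-2* 1.56. The lowest signal detected was -6.39 in OHC-TRECK DT(-), but -5.93 in WT DT(-), -5.48 in WT DT(+) and -5.44 in OHC-TRECK DT(+). A level of -6.2, as in *Foxp3* and *Ighv14-2*, could therefore pass the filter only in untreated OHC-TRECK. With normexp background correction *Foxp3* (0.97) and *Ighv14-2* (0.98) were under 2-fold. *Slpi*, a leukocyte protease inhibitor, read -2.43, -1.13, -3.59 and -1.06 (1.23), so that the toxin difference in OHC-TRECK was 2.53 while both DT(+) arrays were level. In the lower ones untreated OHC-TRECK was the highest array, as for *Snora47*, a small nucleolar RNA (-4.02, -3.78, -2.72 and -4.51), *Rnu3b1*, a U3 RNA (-0.09, 0.18, 0.96 and -0.39), and *Sfmbt2* (-4.29, -4.35, -3.02 and -4.77).

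Untreated WT set 29 higher and 18 lower interactions. *Carf* read -2.60, -5.03, -4.72 and -5.08 (2.07), *Hlx*, a homeobox gene, -2.51, -4.62, -4.15 and -4.57 (1.69), and *Gckr*, a regulator of glucokinase, -2.57, -3.90, -4.06 and -3.65 (1.74). In these genes WT DT(-) was the highest array and the other 3 lay together. Among the lower members *Agr3* read -3.16, -1.93, -1.73 and -2.17 (-1.68), *Mdfi* -0.30, 0.64, 2.30 and 1.62 (-1.63), *Syt10* -4.43, -2.20, -2.59 and -1.62 (-1.25, and -0.86 with normexp) and *Otog* (otogelin), a protein of the acellular membranes of the inner ear, -1.27, -0.23, -0.37 and -0.58 (-1.25).

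The largest interactions of all were set by no single array. *Cfap52*, which encodes a protein of motile cilia, read -5.58 in WT DT(-), -2.50 in WT DT(+), -2.20 in OHC-TRECK DT(-) and -5.41 in OHC-TRECK DT(+), an interaction of -6.28 with a software error of 0.47 (-4.62 with normexp). WT DT(-) and OHC-TRECK DT(+) were both low and the other 2 arrays both high, so the toxin difference was 3.07 in WT and -3.21 in OHC-TRECK. *Cib3*, a calcium-binding protein linked to mechanotransduction, read -3.02, -0.99, -0.85 and -3.93 (-5.11). The same crossed order held for *Zcchc12* (-4.96, -2.87, -2.61 and -5.13), *Cyp2g1*, an enzyme of the olfactory mucosa (-5.27, -3.19, -2.83 and -5.13), and *Fam166c* (-4.92, -2.88, -2.45 and -4.60). Both probes of *Skor1*, a transcriptional corepressor, showed it, with interactions of -4.12 and -4.40.

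The split into this crossed order was made after the values had been seen. Of the lower members, 10 probes of 9 genes had both high arrays 2-fold or more above both low arrays, against 1 probe of the higher members (1700102J08Rik, 2.88). At 1.5-fold the counts were 34 and 14. Several of the 34 probes belong to genes for axonemes of motile cilia, among them *Mlf1* (-2.70), *Dynlrb2* (-2.43), *Cfap45* (-2.16), *Dnah2* (-2.15), *Enkur* (-2.07), *Tekt2* (-1.93) and both probes of *Tekt1* (-1.88 and -1.76). Other genes were also among the 34, such as the hair cell factors *Gfi1* (-3.01) and *Lhx3* (-2.83), *Gad1* (-2.05) and *Zic2* (-1.75). Of 14 motile cilia genes measured, 6 were past 2-fold, all lower and all set by no single array. The list median was -0.61, with a median toxin difference of 0.46 in WT and -0.45 in OHC-TRECK. *Foxj1*, the master factor of motile cilia (-0.14), *Dnaic1* (-0.16) and *Hydin* (-0.16) did not share it.

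*Cib3* and *Kcna10* are known from vestibular hair cells. *Kcna10*, a potassium channel, read -0.52, 0.04, 0.22 and -0.90 (-1.68). Of vestibular epithelium, 2 further genes, chosen after seeing the data, did not share the order, since *Oc90* had an interaction of 0.63 and the 2 probes of *Otop1* had 0.35 and -0.18. *Ptprq*, a hair bundle phosphatase that was not well above background in OHC-TRECK DT(+), read -4.89 in WT DT(-), -3.51 in WT DT(+) and -3.53 in OHC-TRECK DT(-), and was at most -5.14 in OHC-TRECK DT(+). The part of vestibular or ciliated tissue in these values was not tested. With 1 pool a group, the tissue taken for that pool and the condition cannot be told apart.

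**Figure D3:**
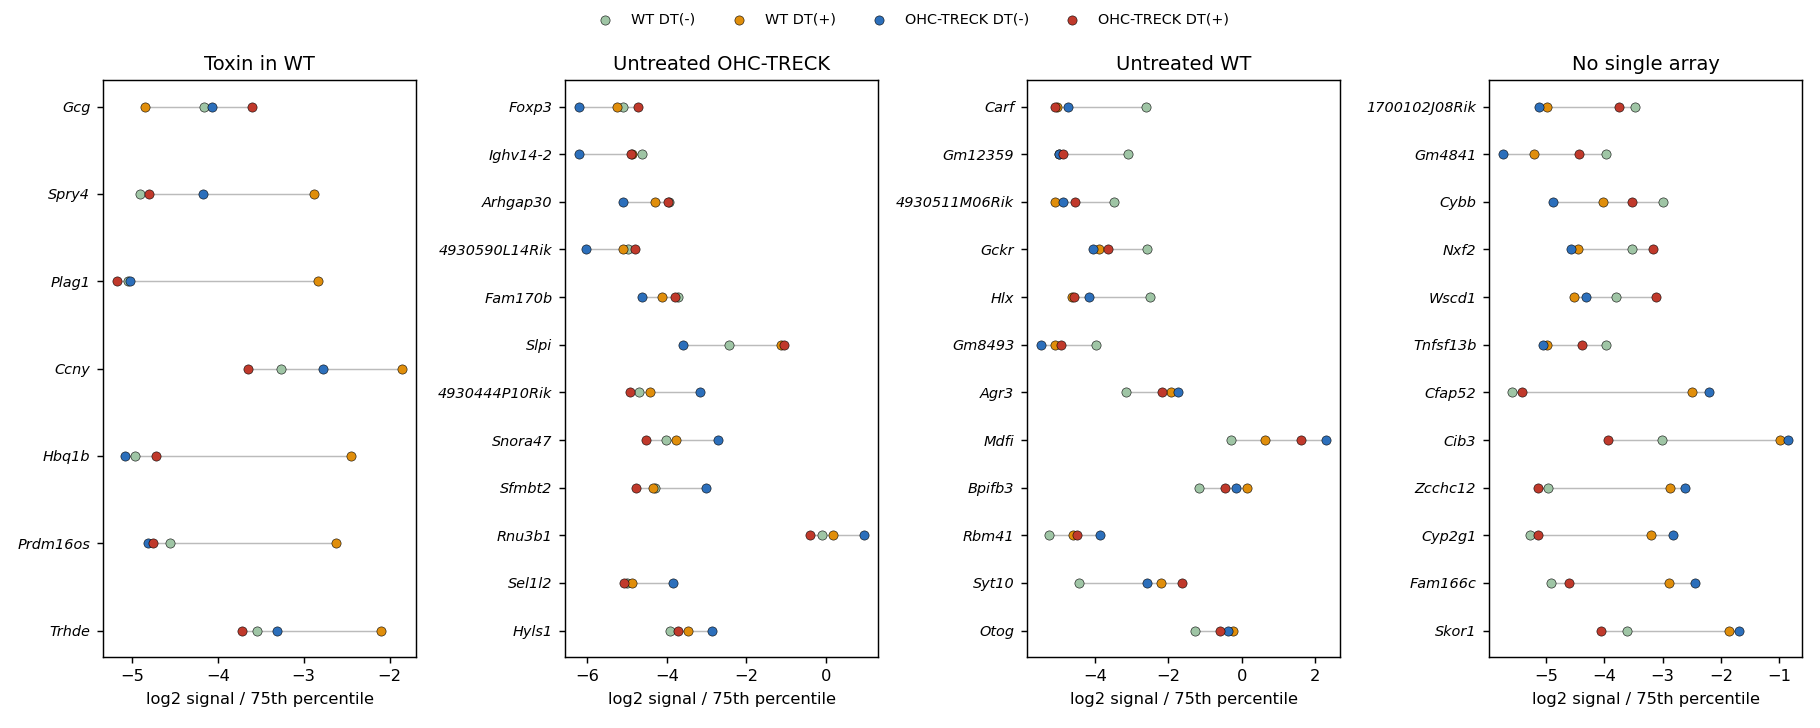
Signal of the named genes set by toxin in WT, by untreated OHC-TRECK, by untreated WT and by no single array, as log2 relative to the 75th percentile of the array, with 1 point per array joined by a grey line. In the last panel the lower 6 genes, from *Cfap52* to *Skor1*, have WT DT(-) and OHC-TRECK DT(+) together on the left and the other 2 arrays together on the right.

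The higher members without a single array included genes induced by interferon. *Ifi44* read -1.82, -2.36, -2.24 and -1.69 (1.09), *Iigp1* -3.57, -4.04, -4.30 and -3.58 (1.19, and 0.66 with its second probe), and the 2 probes of *Zbp1*, a nucleic acid sensor, had 1.09 and 1.58. OHC-TRECK DT(+) and WT DT(-) were level in *Ifi44* and *Iigp1*, and the other 2 arrays were lower. All 18 interferon response genes had an interaction above 0, with a median of 0.78, and 4 were past 2-fold. Only *Bst2* (1.01) of these 4 was set by toxin in OHC-TRECK. The median toxin difference of the list was 0.53 in OHC-TRECK and -0.24 in WT, and the median gap of untreated OHC-TRECK to untreated WT was -0.44. *Cybb*, the phagocyte oxidase subunit, read -2.99, -4.03, -4.88 and -3.53 (2.39).

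**Figure D4:**
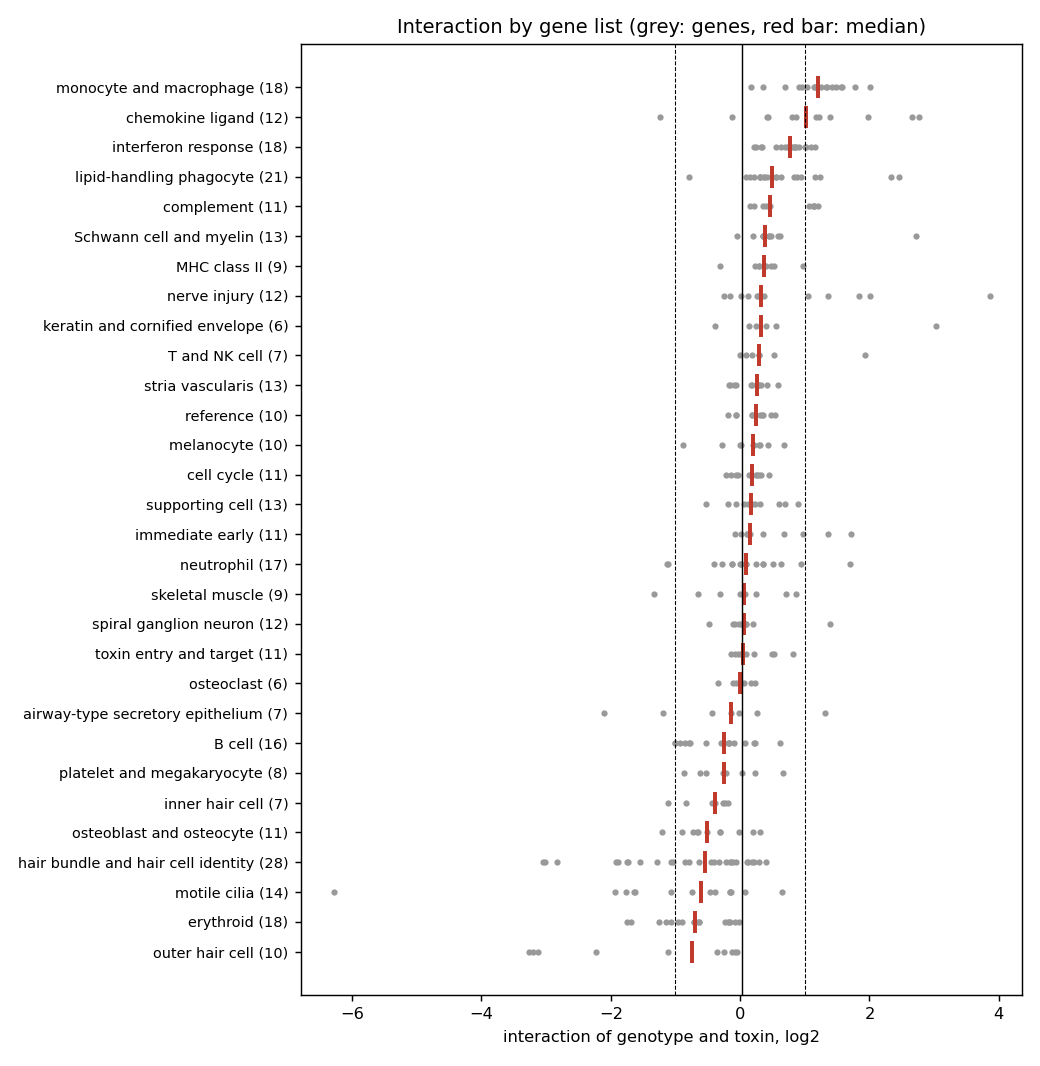
Interaction on the log2 scale for 30 gene lists, with 1 grey point per measured gene and a red bar at the list median. Numbers in brackets count measured genes, the solid line is the median over all genes (0.02), and dashed lines mark 2-fold. Monocyte and macrophage genes (median 1.21) are at the top and OHC genes (median -0.74) at the bottom, with erythroid (-0.70) and motile cilia (-0.61) genes beside the latter.

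Not every toxin difference in OHC-TRECK became an interaction. Of 291 probes (1.23% of those tested) that were 2-fold or more higher in OHC-TRECK DT(+) than in OHC-TRECK DT(-), 168 were also higher members, and of 163 lower probes (0.688%) 125 were lower members. The interaction contains the toxin difference in OHC-TRECK, so part of this overlap follows from its definition. In WT, 146 probes (0.616%) were 2-fold or more higher with toxin. Conversely, 115 of the higher and 148 of the lower members were under 2-fold in OHC-TRECK. Toxin-treated arrays were 2-fold or more higher in both genotypes for 43 probes (0.182%) and lower in both for 4. These comparisons use different arrays in each genotype.

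Of the lists, cell cycle genes had 6 members 2-fold or more higher in both genotypes, neutrophil and erythroid genes 4 each and B cell genes 2. *Mki67*, a proliferation marker, read -2.35, -0.26, -3.19 and -1.14, so that the toxin difference was 2.09 in WT and 2.05 in OHC-TRECK and the interaction -0.04. Its second probe had an interaction of 0.13. Of 11 cell cycle genes measured, 7 were past 2-fold in OHC-TRECK, 6 in both genotypes, and 0 in the interaction, whose median was 0.18. Of 17 neutrophil genes, 6 were past 2-fold in OHC-TRECK and 5 in WT, with 1 higher and 2 lower interactions, and 10 were 2-fold or more lower in untreated OHC-TRECK than in untreated WT, as were 129 (0.545%) of all probes. *Ltf* (lactoferrin) read -0.11, 1.22, -1.53 and -0.48, an interaction of -0.28. The interaction of *Cd177*, a neutrophil surface protein, was 1.69, from signals of -5.54, -4.45, -6.37 and -3.58.

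**Figure D5:**
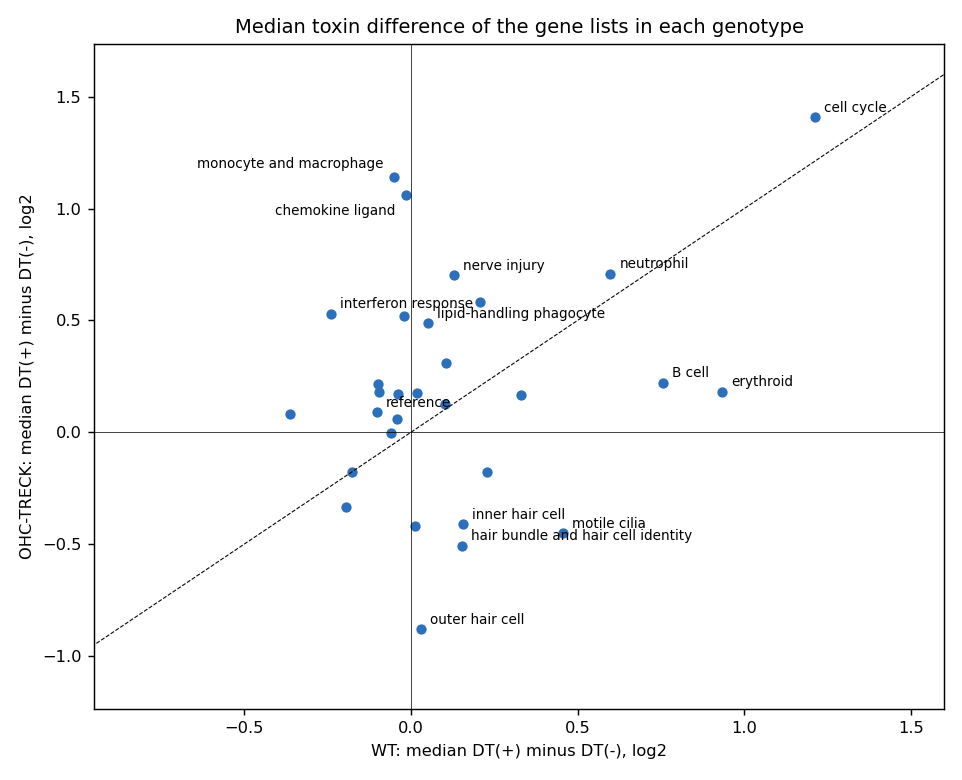
Median toxin difference of each of 30 gene lists in WT (horizontal axis) and OHC-TRECK (vertical axis), log2. The dashed line marks equal differences. Cell cycle genes (1.21 in WT and 1.41 in OHC-TRECK) and neutrophil genes (0.60 and 0.71) lie near the line, monocyte and macrophage genes lie above it near 0 on the WT axis, and motile cilia genes lie at the lower right.

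The levels of blood cell genes on the same arrays stand beside the immune result. Platelet and megakaryocyte genes had a median interaction of -0.24 over 8, T and NK cell genes 0.29 over 7 with 1 past 2-fold (*Cd28*, 1.93), and MHC class II genes 0.37 over 9 with 0 past 2-fold. Osteoblast and osteocyte genes had -0.51 over 11 with 1 lower (*Bglap*, -1.21) and osteoclast genes -0.0038 over 6. The part of marrow or bone in the interactions was not tested. Reference genes had 0.25 over 10, stria vascularis genes 0.27 over 13, melanocyte genes 0.21 over 10 and spiral ganglion neuron genes 0.05 over 12. The last list held 1 member past 2-fold, *Prph* (peripherin; -2.24, -3.0, -2.82 and -2.19).

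Where a gene had several probes, they often disagreed. Of 118 named genes with at least 2 probes tested and at least 1 member among them, 18 had every probe past 2-fold and 71 had every probe on the same side of 0. For genes of toxin in OHC-TRECK these counts were 13 and 29 of 41, and for genes of untreated OHC-TRECK 0 and 7 of 14. At the threshold, the higher member just inside was *Prdm6* (1.0038) and the probe just outside was *Rnaseh2a* (0.9985). Among the lower probes these were an unnamed transcript (-1.0008) and *Trpm3* (-0.9988).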

How the data were processed

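Cochlear RNA of 4 groups was hybridised to 1-colour Agilent mouse arrays, 1 pooled array a group, on 1 slide. The authors extracted the scans with Agilent Feature Extraction (11.5.1.1) and deposited the spot intensity, background-subtracted and detrended by that software but not scaled between arrays. The deposited series table holds that signal divided by 1 constant per array and was used as an alternative.

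Control spots and outlier spots (149 to 228 an array) were dropped and the remaining spots of a probe averaged. Signals were expressed relative to the 75th percentile of their array, on the log2 scale. A probe counted as well above background where over 0.5 of its spots did, which held for 62.3% to 70.6% of the probes of an array, and 0 spots were saturated. The number of arrays limits the precision. Members, gene lists, classes and named genes were chosen with earlier results of these data known. For lists, 1 probe a gene was used, that with the highest mean. Named genes were, among genes with a RefSeq name and by the brightest probe of each, the 12 highest and lowest interactions set by toxin in OHC-TRECK and up to 6 in each direction of the other classes, with genes of the lists, *Slc26a5*, *Hbegf* and the genes next to the threshold. Genes outside the rule are other members of a class named as examples, *Oc90*, *Otop1* and *Kcna10*, and the genes with a shown promoter.

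Of the 558 member probes, RefSeq names came by symbol for 465, accession for 21 and synonym for 4, and 68 kept the name of the array files. Probe positions are mm9 as deposited. Exon or UTR context was not analysed here, and some genes are not reported here. Alternatives changed the background correction (normexp, offset 50), the scaling, the filter, the source and the class rule. Steps were tested on simulated data. Software was limma 3.58.1 (R 4.3.3) for normexp, and otherwise Python 3.11.15 with pandas 2.3.3, numpy 2.4.6 and, for plots, matplotlib 3.10.9.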

Additional observations from a re-analysis of the deposited data

Results flagged for a closer look

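In 15 probes the toxin difference was 2-fold or more in opposite directions in the 2 genotypes. With 1 array a group the difference between genotypes was not tested, and these probes were picked for it after the values were seen. The interaction was -6.28 for *Cfap52*, -5.11 for *Cib3*, -4.61 for *Zcchc12*, -4.40 for *Skor1* (the lower of its 2 probes), -4.38 for *Cyp2g1*, -4.19 for *Fam166c*, -3.80 for *Fam183b*, -3.18 for *Maats1*, -2.70 for *Mlf1* and -2.09 for *Mettl6*, all lower with toxin in OHC-TRECK and higher with toxin in WT. In the opposite direction it was 2.39 for *Cybb*, 2.53 for *Gm4841*, 2.55 for a probe without a gene name on chromosome 2 and 2.88 for 1700102J08Rik.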

How the results depend on the processing

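With normexp 46 of the 67 named genes moved by more than their software error, and 9 were under 2-fold: *Foxp3* (0.97), *Ighv14-2* (0.98), 4930590L14Rik (0.87), *Fam170b* (0.94), *Sel1l2* (-0.66), *Hyls1* (-0.93), *Gcg* (0.83), *Rbm41* (-0.67) and *Syt10* (-0.86). *Cfap52* had -4.62 in place of -6.28, *Zcchc12* -3.28 in place of -4.61 and *Strc* -2.37 in place of -3.26. No sign reversed. Filters leave a gene's value as it is, and median scaling and the deposited table shift all genes alike, so these do not bear on single genes. A signal of 100 left 41 of the 67 measured. Of the counts under the alternatives, 34 lay within 1.5 times the count given and 25 did not. With normexp there were 182 higher and 145 lower interactions, with 13 set by untreated OHC-TRECK, 25 by toxin in WT and 22 by untreated WT. With probes well above background on 1 or more arrays there were 1025 higher and 648 lower, with 407 higher by toxin in OHC-TRECK, 453 set by untreated OHC-TRECK, 168 by toxin in WT and 252 by untreated WT. Without a filter the same counts were 1026, 648, 407, 454, 168 and 252, and the median over all probes was 0.15 in place of 0.02. In both of these settings a signal not well above background was raised to at least the lowest signal detected on its array. That lowest signal was -5.93 in WT DT(-), -5.48 in WT DT(+), -6.39 in OHC-TRECK DT(-) and -5.44 in OHC-TRECK DT(+). A probe undetected on several arrays can thus read lowest in untreated OHC-TRECK, and these counts depend on that step. A signal of 100 or more on each array left 20 set by untreated OHC-TRECK and 30 by untreated WT, and a share of 0.7 left 26 and 22. Pairwise contrasts left 111 higher by toxin in OHC-TRECK, 25 set by untreated OHC-TRECK, 41 by toxin in WT and 30 by untreated WT. The causes were not tested. The probes lower by toxin in OHC-TRECK ranged from 59 to 114 over all alternatives, beside 87. Of the list medians under the alternatives, 215 moved by less than the median software error of an interaction (0.29) and 2 by more, both for complement genes (1.07 with the filter on 1 or more arrays and 0.78 without a filter, beside 0.47). No array could be left out, since each group has 1. No paired analysis was possible because each group has 1 array.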
